A study of Mus musculus with 12 samples.

Results

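Donor CD8 T cells that lacked STAT3 were compared with WT donor CD8 T cells in the liver on day 6 after hematopoietic cell transplantation (HCT). The comparison uses 4 of the 12 RNA-Seq libraries, 2 labelled STAT3ko and 2 labelled WT, which were found by their column names and paired by replicate number. All donors were C57BL/6 mice and all recipients were lethally irradiated WT BALB/c mice. According to the study's methods, the STAT3ko donors carried floxed Stat3 alleles and a CD4-Cre transgene. This promoter is active from the CD4+CD8+ stage in the thymus, which cells of the CD8 lineage pass through, and the share of cells with a complete deletion was not measured here. The donor cells were sorted as H-2Kb+TCRβ+CD8+ cells, where H-2Kb is the class I molecule of the donor strain, and each library held cells combined from 3 recipients. A library is therefore a pool of mice. In the fit used to call genes, p-values measure the spread left among the pools of 6 CD8 libraries once replicate number is accounted for. The 2 CD8 libraries labelled STAT3ko PD-1ko, whose donors also lacked the inhibitory receptor PD-1, entered the model to estimate the spread, and the CD4 libraries of the WT and STAT3ko groups were used for a comparison between subsets. The ages of the mice are not given in the sources used here.

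STAT3 is a transcription factor that is phosphorylated by Janus kinases downstream of IL-6, IL-10, IL-21, IL-23 and other cytokines, and then binds DNA as a dimer. In T cells it is best known for driving the type 17 program, for inducing its own inhibitor SOCS3, and, below IL-21 and IL-10, for supporting granzyme expression and memory formation in CD8 T cells. Alloreactive CD8 T cells that enter the liver in graft-versus-host disease divide, make IFN-γ and kill target cells with perforin and granzymes.

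The WT libraries held 23493547 and 24551477 counts on genes and the STAT3ko libraries 24150842 and 24433942. Levels are given as CPM, the counts scaled to a common library size with TMM factors, with replicate 1 first. The labelled cell type was checked with Cd8a, a chain of the CD8 coreceptor, at 1188 and 1349 CPM in WT and 1018 and 1192 CPM in STAT3ko cells, and by Cd8b1, the other chain, at 1030 and 1064 against 1032 and 1192 CPM. Cd4 lay between 0.355 and 1.49 CPM in the 4 libraries.

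Stat3 itself, on chromosome 11 (mm10, 100886806 to 100939540, minus strand), was at 396 and 387 CPM in the WT libraries and at 148 and 136 CPM in the STAT3ko libraries. The groups did not overlap, and the log2 fold change was -1.46 (SE 0.19), in the direction the labels give. In the STAT3ko PD-1ko libraries Stat3 was at 154 and 238 CPM, so that the second of these lay between the STAT3ko and WT levels. With edgeR's quasi-likelihood test on the 6 CD8 libraries with replicate number as a block, the Benjamini-Hochberg adjusted p was 0.092, over the 0.05 used for a call. It was 1.38e-11 with DESeq2 and 0.00887 in the edgeR fit of all 12 libraries. Which exons the floxed segment holds is not given in the sources used here, and a count per gene includes reads from exons outside it. Of 52 genes listed within 500 kb of Stat3, 35 were tested and none was called, beside 0.075% of all genes. Their median log2 fold change was 0.013. Without overlap 10 of the 35 lay higher and 7 lower, beside 22.3% and 21.1% of all genes.

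Of 25078 genes listed, 12002 passed the filter on low counts and were tested. Called genes, those at an adjusted p under 0.05, numbered 9, or 0.075% of the genes tested. The 7 that fell (0.0583%) were Chst11, Il1r1, Gzmb, Klrh1, 2900026A02Rik, Acpp and Filip1, and the 2 that rose (0.0167%) were Cybb and Ifi27l2a. All 9 were also called by DESeq2, which called 264 genes (2.31%), 151 of them higher (1.32%) and 113 lower (0.987%), and by the fit of 12 libraries, which called 74 (0.6%), 25 of them higher (0.203%) and 49 lower (0.397%). The count changed with the test and the libraries fitted. At an unadjusted p under 0.05 there were 1794 genes (14.9%; 7.81% higher and 7.14% lower), and the fit of the 4 libraries alone called 2921 genes with the block and 0 without it. Leaving out WT replicate 1 gave 18 genes, STAT3ko replicate 1 gave 200 and STAT3ko replicate 2 gave 70, while leaving out STAT3ko PD-1ko replicate 1 or 2 gave 3113 or 3134. Below, a gene is said to rise or fall only where it is among the 9, and DESeq2 calls are named as such.

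Granzyme B (Gzmb), the serine protease that killer cells inject through perforin pores, was at 5202 and 4238 CPM in WT cells and at 2206 and 1859 CPM in STAT3ko cells. Each STAT3ko library lay far below both WT libraries. Gzmb fell by 1.21 on the log2 scale (SE 0.088, adjusted p = 0.0155 with edgeR), a 2.32-fold lower level. Without the replicate block its adjusted p was 0.097 with edgeR, over the threshold. Per exon length, its deposited level in WT cells was 3500 and 2812 RPKM. Granzyme A (Gzma), a tryptase of the same granules, was at 2201 and 2028 CPM in WT and at 893 and 1112 CPM in STAT3ko cells (log2 fold change -1.07, edgeR adjusted p = 0.10, DESeq2 adjusted p = 1.81e-07).

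Gzmb was the member called among 21 tested genes for cytotoxic granules and death ligands, which had a median log2 fold change of -0.33 beside -0.0056 for all genes. That median was -0.10 over the 19 members left with at least 10 counts in every library, also -0.10 with the 4 libraries alone, and -0.14 without WT replicate 2. No overlap between the groups, with STAT3ko lower, was seen for 11 of the 21, beside 21.1% of all genes, and 3 lay higher without overlap, beside 22.3% of all genes. Perforin (Prf1), which forms the pore, was at 425 and 348 against 280 and 274 CPM. TRAIL (Tnfsf10), a ligand of death receptors, was at 61.8 and 79.5 in WT against 32.9 and 39.3 CPM, and DESeq2 called it along with Gzmb and Gzma. Granzymes C to F share much of their sequence, so the split of reads among these paralogs is uncertain. The sum of the list was 13038 and 11571 CPM in WT and 8199 and 8094 CPM in STAT3ko cells. Most of that difference came from Gzmb and Gzma: without them the other 19 members summed to 5636 and 5306 CPM in WT and 5100 and 5123 CPM in STAT3ko cells.

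**Figure D1:**
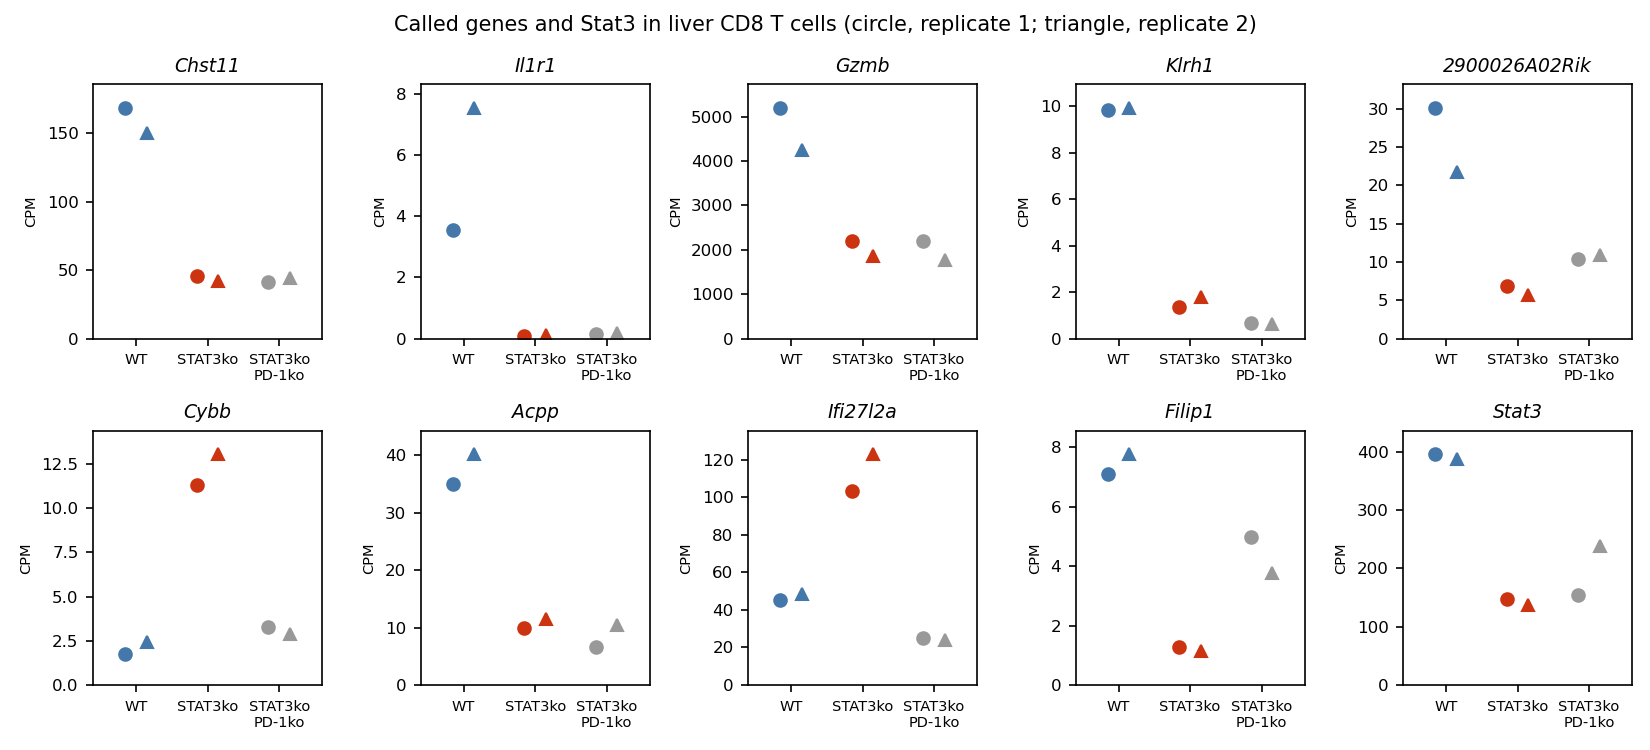
TMM-scaled CPM of the 9 called genes and of Stat3 in the 6 CD8 libraries (circles, replicate 1; triangles, replicate 2; blue, WT; red, STAT3ko; gray, STAT3ko PD-1ko), each y axis starting at 0. In every panel the red symbols lie on the same side of both blue symbols. Gzmb, for example, was at 2206 and 1859 against 5202 and 4238 CPM. For the 9 genes this follows largely from their having been called on these libraries. Cybb and Ifi27l2a are the panels where STAT3ko is higher.

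Among the called genes, the largest log2 fold change was that of Il1r1, the signaling receptor for IL-1, which type 17 T cells carry. It had 80 and 188 counts in the WT libraries and 2 and 3 counts in the STAT3ko libraries (3.55 and 7.56 against 0.086 and 0.124 CPM). Il1r1 fell by 5.64 on the log2 scale (SE 0.41, edgeR adjusted p = 0.0155). It passed the filter on low counts through the WT libraries alone, where it is high, and was not tested with at least 10 counts in every library. The ratio of the summed counts, WT over STAT3ko, was 53.8 (95% exact interval 22.8 to 167, counting error only).

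Most genes of the type 17 program were at low levels in CD8 T cells. Of its 18 genes 13 were tested, 12 of them had a log2 fold change below 0, and the median was -0.59. The STAT3ko libraries were lower without overlap for 9 (21.1% of all genes) and higher for 0 (22.3% of all genes). Il1r1, Il17a and Ccr6 had under 10 counts in each STAT3ko library and passed the filter through other libraries, so that the counts and the median of the 13 describe the members and support nothing. With at least 10 counts in every library 10 members were left, none was called, and their median was -0.38. Il17a, the signature cytokine, had 57 and 34 counts in WT and 7 and 3 in STAT3ko libraries (edgeR adjusted p = 0.092, DESeq2 adjusted p = 0.031), a ratio of 9.13 (95% exact interval 4.75 to 19.7). Ccr6, a chemokine receptor of type 17 cells, was at 0.932 and 0.966 against 0.344 and 0.0824 CPM. In bulk RNA, fewer cells with this program and less RNA of it per cell cannot be told apart. Irf4, an activation factor on the same list that many T cells express, was at 415 and 161 in WT and 400 and 156 CPM in STAT3ko cells, so that its replicates differed more than its genotypes.

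The other genes that fell have varied roles. Chst11, a sulfotransferase that makes chondroitin sulfate, had the smallest p of all genes and was at 169 and 151 CPM in WT and 45.9 and 42.3 CPM in STAT3ko cells. It fell by 1.86 on the log2 scale (SE 0.12, edgeR adjusted p = 0.0155), or 3.62-fold. Acpp, a transmembrane acid phosphatase that can make adenosine from AMP, was at 35.0 and 40.2 against 10.0 and 11.5 CPM and fell by 1.80 (SE 0.17, edgeR adjusted p = 0.0344, or 0.10 without the replicate block, which ends the call). Klrh1, an NK-type lectin receptor gene, was at 9.85 and 9.94 against 1.37 and 1.77 CPM and fell by 2.65 (SE 0.24). Filip1, which encodes a filamin A interacting protein, was at 7.10 and 7.77 against 1.29 and 1.15 CPM and fell by 2.61 (SE 0.25). The uncharacterized gene 2900026A02Rik was at 30.1 and 21.7 against 6.91 and 5.64 CPM and fell by 2.04 (SE 0.19). The adjusted p of the last 3 was 0.0344 with edgeR. None of these 5 overlapped between the groups, as was so for 43.4% of all genes. They were chosen as called on these same libraries, so this adds no support.

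Both genes that rose were on none of the gene lists. Ifi27l2a, a small interferon-inducible gene, was at 45.1 and 48.6 CPM in WT and 103 and 123 CPM in STAT3ko cells, a rise of 1.27 on the log2 scale (SE 0.12, edgeR adjusted p = 0.0344). Cybb, the catalytic subunit of the phagocyte NADPH oxidase, was at 1.73 and 2.45 against 11.3 and 13.1 CPM and rose by 2.54 (SE 0.24, edgeR adjusted p = 0.0344), a 5.81-fold higher level. Cybb is also a marker of phagocytes.

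**Figure D2:**
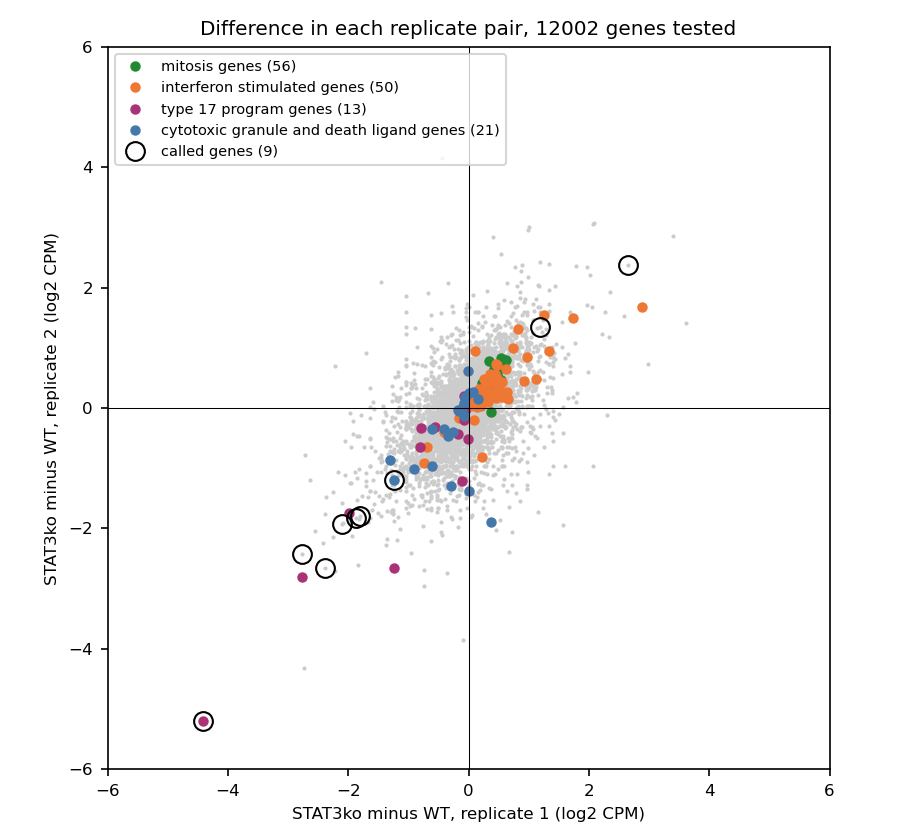
Log2 CPM difference between STAT3ko and WT CD8 T cells in replicate pair 1 (x axis) and replicate pair 2 (y axis) for the 12002 genes tested (gray), with 4 gene lists in color and the 9 called genes circled. Called genes lie near the diagonal, Il1r1 at the lower left and Cybb at the upper right. Their place near the diagonal follows in part from calling them on these same pairs. The mitosis genes form a tight cloud above 0 on the x axis, and the type 17 genes spread to the lower left.

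Over all genes the differences in pair 1 and pair 2 correlated with r = 0.58, genes not being independent replicates. Differences of the same sign in both pairs were found for 36.7% of genes as higher and for 38.2% as lower in STAT3ko cells. Immediate early genes, which T cells switch on within minutes of stimulation or of tissue dissociation, differed between the replicates more than between the genotypes. Their 24 tested members summed to 6727 CPM in WT and 6484 CPM in STAT3ko replicate 1, and to 2181 and 2206 CPM in replicate 2. Junb was at 795 and 170 CPM in WT and at 651 and 142 CPM in STAT3ko cells, and Fos at 144 and 46.8 against 162 and 62.3 CPM. Klf6, at 896 and 248 against 953 and 303 CPM, followed the same order. Egr2 and Egr3, T cell receptor-induced factors that are also on the anergy list, did not follow it. Egr2 was at 10.6 and 18.2 against 6.79 and 6.84 CPM, Egr3 was at 15.8 and 21.97 against 8.72 and 9.84 CPM, and DESeq2 called both lower.

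Genes of mitosis all differed in 1 direction. All 56 mitosis genes were tested, all 56 had a log2 fold change above 0, and the values ran from 0.16 to 0.71 with a median of 0.42. The libraries did not overlap for 48 of the 56, STAT3ko being higher, beside 22.3% of all genes. None was called by edgeR on the 6 or 12 libraries with the filter on low counts, 2 on the 6 libraries without it, 44 had an unadjusted p under 0.05 in that direction (7.81% of all genes did), and DESeq2 called 16 (1.32% of all genes), or 6 without the replicate block. With the 4 libraries and the block, edgeR called 55 of the 56 higher, beside 1541 of the 11687 genes tested in that fit. Of all genes, 34 were called higher on the 6 libraries without the filter, and 98 by DESeq2 without the block. Mki67, the proliferation antigen Ki-67, was at 2199 and 1916 CPM in WT and at 3033 and 2809 CPM in STAT3ko cells (log2 fold change 0.51, SE 0.092, edgeR adjusted p = 0.11, DESeq2 adjusted p = 0.00813). Top2a, the topoisomerase that untangles chromosomes, was at 1218 and 975 against 1637 and 1524 CPM. Plk1, the mitotic kinase with the smallest p on the list, was at 87.6 and 69.3 against 135 and 121 CPM. The summed level was 13006 and 11315 CPM in WT and 16962 and 15754 CPM in STAT3ko cells.

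The S phase list showed smaller differences of the same sign. Of its 56 genes 51 had a log2 fold change above 0, the median was 0.25, 36 lay higher without overlap (22.3% of all genes) and 0 lower (21.1%), and DESeq2 called 5 higher (1.32% of all genes), or 1 without the replicate block. With the 4 libraries and the block, edgeR called 37 higher, beside 1541 of the 11687 genes tested in that fit. Rrm1, the large subunit of ribonucleotide reductase, was at 541 and 454 against 632 and 579 CPM. Mcm6, of the replicative helicase, was at 618 and 453 against 711 and 558 CPM, and its groups overlapped. Ccnd2, cyclin D2, which opens the cell cycle, was at 189 and 166 against 287 and 264 CPM (DESeq2 adjusted p = 0.00057). The share of dividing cells was not measured by these data.

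**Figure D3:**
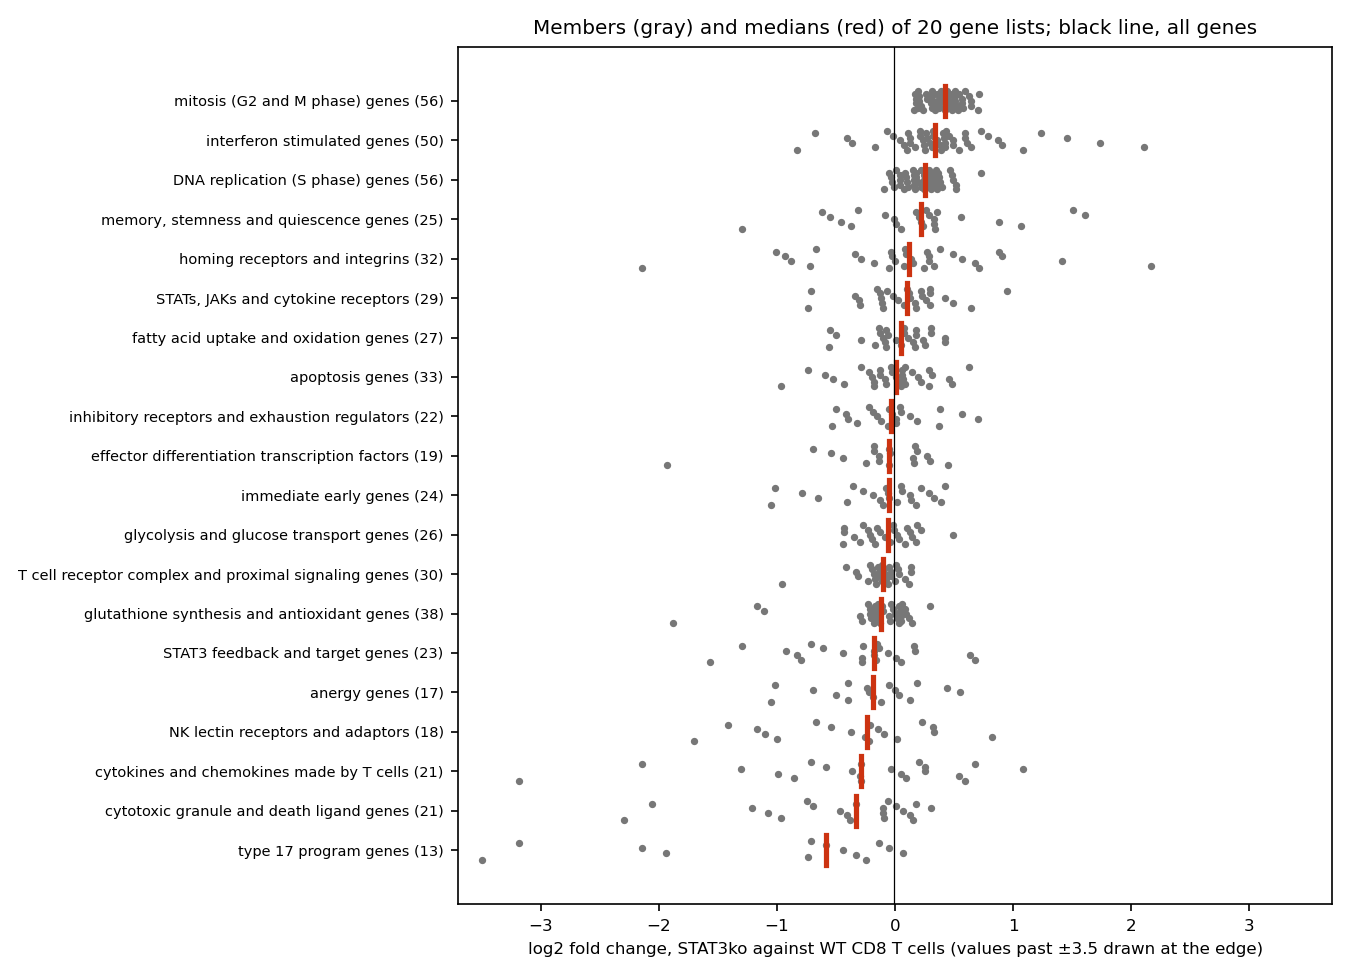
Log2 fold change of each tested member of 20 gene lists (gray points; member number in parentheses) in STAT3ko against WT CD8 T cells, the list median (red bar) and the median of all genes (black line, -0.0056). The mitosis list (median 0.42) has every member right of 0, the interferon stimulated list has a median of 0.34, and the cytotoxic and type 17 lists have medians of -0.33 and -0.59, which become -0.10 and -0.38 with at least 10 counts in every library; the point of Il1r1 (-5.64) is drawn at the left edge.

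Interferon stimulated genes other than Ifi27l2a, which was not on the list, mostly had values above 0 too. Of 50 tested, 43 had a log2 fold change above 0, with a median of 0.34, and 33 lay higher and 3 lower without overlap, beside 22.3% and 21.1% of all genes. DESeq2 called 6 higher (Oas3, Samhd1, Cmpk2, Xaf1, Gbp6 and Iigp1) and 1 lower (Ly6a), beside 1.32% and 0.987% of all genes. With edgeR the 6 libraries gave 0 calls with the filter on low counts. Without it they gave 2 higher and 1 lower, beside 34 and 43 of 16863 genes. The 12 libraries gave 2 higher and 1 lower, beside 0.203% and 0.397% of all genes. The 4 libraries with the block gave 32 higher and 3 lower, beside 1541 and 1380 of 11687 genes. Oas3, a 2'-5' oligoadenylate synthetase, was at 48.2 and 33.0 in WT and at 85.5 and 82.7 CPM in STAT3ko cells. Samhd1, which hydrolyzes dNTPs and restricts viruses, was at 537 and 465 against 739 and 770 CPM. Tap1, the peptide transporter of class I loading, overlapped at 477 and 559 against 530 and 595 CPM. Ly6a (Sca-1) went the other way, at 281 and 440 against 167 and 234 CPM.

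Among 23 tested feedback and target genes of STAT3, none was called by edgeR on the 6 libraries with the filter on low counts. Without it 3 were lower and 1 higher, beside 43 and 34 of 16863 genes. The fit of 12 libraries called 2 lower (Bcl3 and Icos), beside 0.397% of all genes. That of the 4 libraries with the block called 12 lower and 3 higher, beside 1380 and 1541 of 11687 genes. The list median was -0.18, or -0.30 without WT replicate 2 and -0.28 without STAT3ko replicate 1. Of the list, 10 lay lower and 1 higher without overlap, beside 21.1% and 22.3% of all genes. Bcl3, an IκB-like cofactor of NF-κB induced through STAT3, was at 26.1 and 35.3 against 10.99 and 9.56 CPM (log2 fold change -1.57, edgeR adjusted p = 0.072, DESeq2 adjusted p = 1.04e-07). Socs3, the feedback inhibitor of gp130 receptors, was at 139 and 62.8 in WT and 85.9 and 27.7 CPM in STAT3ko cells. Its groups overlapped because replicate 2 was lower in both genotypes, and within each pair STAT3ko was lower (log2 fold change -0.92, DESeq2 adjusted p = 0.00015). Icos, a costimulatory receptor, was at 684 and 532 against 413 and 275 CPM. Bcl6 was at 3.95 and 4.83 against 1.63 and 1.94 CPM and Fgl2 at 108 and 135 against 55.6 and 86.2 CPM. Pim1, a survival kinase often induced by STAT factors, was at 841 and 307 against 751 and 268 CPM, a difference between genotypes far smaller than that between replicate numbers. Ccnd2, on this list as well, was higher.

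The promoters of this list were searched for TTCNNNGAA, the palindromic core that STAT dimers bind, in the 250 bases before and 50 bases after each RefSeq start (GRCm38.p6, the build of mm10). Of the 23 genes 17 had a promoter in the table, and 4 of these (Socs3, Cish, Bcl6 and Fgl2; 23.5%) held the motif, beside 8.39% of the 9519 tested genes with a promoter. Of the 9 called genes 8 had a promoter, and that of Gzmb held the motif. A match describes letters and is not evidence of binding. The motif is shown in capitals for the 3 of these genes whose levels were lower in both pairs. Bcl6 held 4 matches in the windows of 2 starts, and all are shown.
Socs3 (chr11:117969503-117969529, minus strand, motif starting 154 bases before the start): aaaccagccTTCTTAGAAgggaggggg
Bcl6, first start (chr16:23988953-23988979, minus strand, 118 bases before it): gcaaattagTTCTCAGAAttccagagg
Bcl6, second start (chr16:23981434-23981460, minus strand, 168 bases before it): ggccgcggcTTCCTGGAAagttacttc
Bcl6, second start (chr16:23981388-23981414, minus strand, 122 bases before it): gcaggagtgTTCTGTGAAatccttaga
Bcl6, second start (chr16:23981354-23981380, minus strand, 88 bases before it): tcgactacgTTCCGGGAAtgagagggc
Fgl2 (chr5:21372628-21372654, plus strand, motif starting 36 bases before the start): cccgcccttTTCTGGGAActcagaacg
Cish, which also held the motif, was at 83.9 and 57.9 against 61.9 and 62.4 CPM, without a difference beyond the spread.

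The cytokine receptors, JAKs and other STATs had a median of 0.097 over 29 tested genes, with 9 higher and 7 lower without overlap, near the 22.3% and 21.1% of all genes. Jak3, the kinase bound to the common γ chain, was at 223 and 256 against 141 and 150 CPM, and Il4ra was the other gene of this list that DESeq2 called lower. Il2rb, the β chain of the IL-2 and IL-15 receptors, was at 1640 and 1290 against 1965 and 1944 CPM (edgeR adjusted p = 0.17). Jak1 was at 1256 and 1108 against 1268 and 1257 CPM and Stat4 at 377 and 417 against 436 and 494 CPM.

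**Figure D4:**
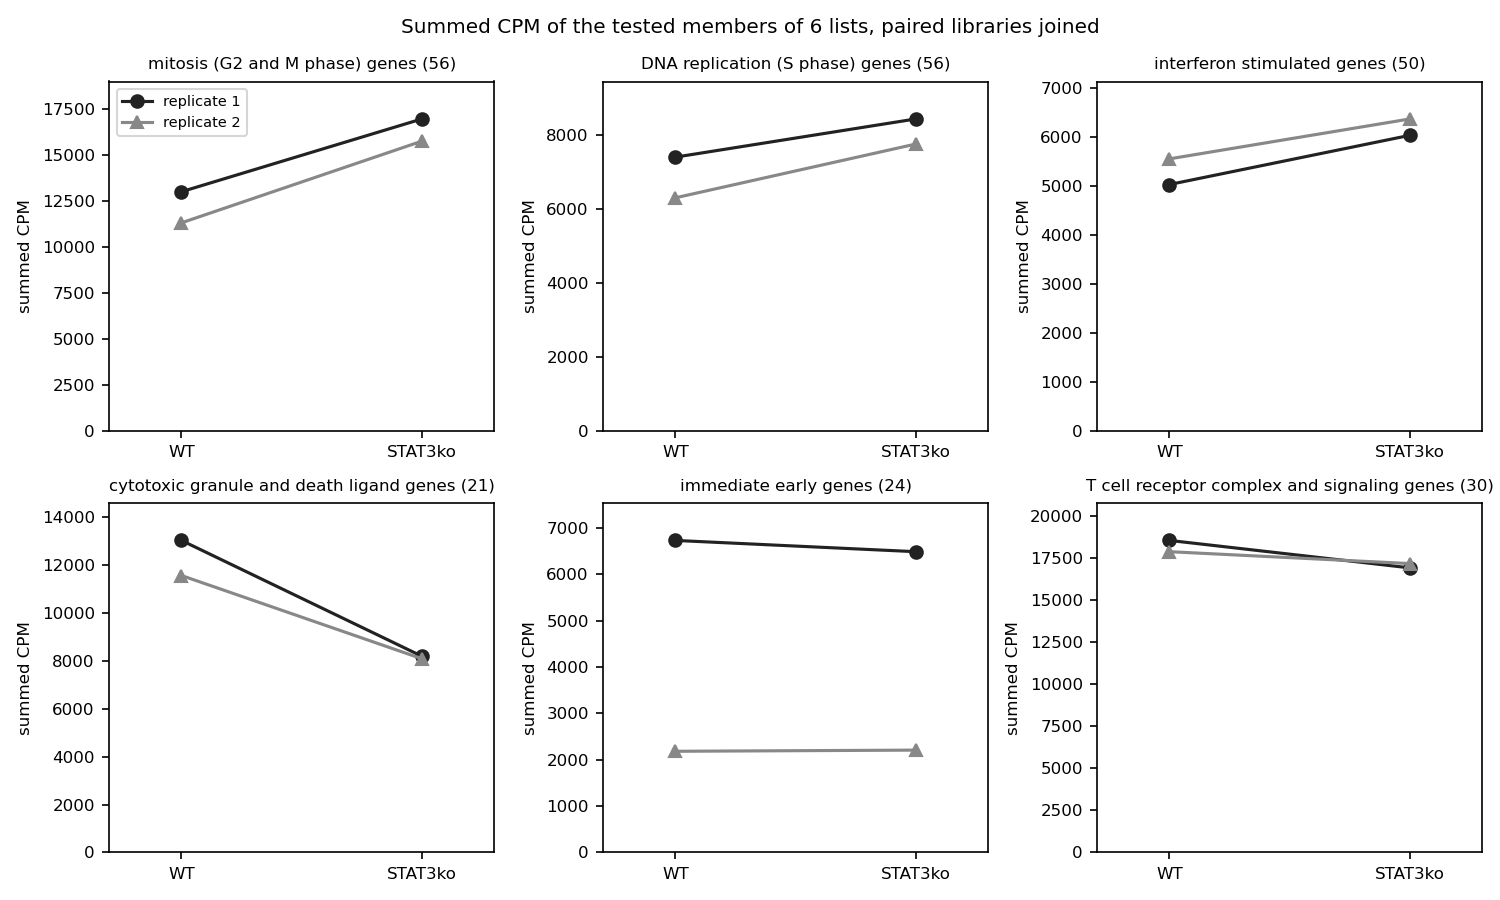
Summed CPM (axes from 0) of the tested members of 6 gene lists in WT and STAT3ko CD8 T cells, with the libraries of replicate 1 (black circles) and replicate 2 (gray triangles) joined. Mitosis genes go from 13006 and 11315 to 16962 and 15754 CPM and cytotoxic genes, mostly through Gzmb and Gzma, from 13038 and 11571 to 8199 and 8094 CPM, while immediate early genes differ between the replicates (6727 and 2181 CPM in WT) more than between the genotypes.

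Cytokine genes made by T cells had a median of -0.29 over 21 tested, which was -0.039 over the 17 with at least 10 counts in every library, -0.60 without WT replicate 1 and -0.0022 without WT replicate 2. Ifng, the main effector cytokine of these cells, was at 356 and 260 in WT and 328 and 193 CPM in STAT3ko cells, with overlap. Ccl5, a chemokine of effector CD8 T cells, was at 395 and 359 against 518 and 580 CPM (log2 fold change 0.54, edgeR adjusted p = 0.12, DESeq2 adjusted p = 0.0102). Spp1 (osteopontin) was at 1.46 and 1.53 against 0.301 and 0.371 CPM. It had few counts and was not tested with at least 10 counts in every library. Il10 was at 32.1 and 12.03 against 62.7 and 14.9 CPM, higher in both pairs but with overlap.

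Genes of memory, stemness and quiescence had a median of 0.22 over 25 tested (0.11 without WT replicate 2), with 8 higher and 4 lower without overlap, beside 22.3% and 21.1% of all genes, the shares against which the counts of the lists that follow are also to be read. Bach2, a repressor that holds back effector differentiation, was at 3.46 and 4.59 against 11.4 and 13.1 CPM (log2 fold change 1.61, edgeR adjusted p = 0.072; DESeq2 adjusted p = 8.16e-05). S1pr1, which lets T cells leave tissue, was at 359 and 243 against 422 and 327 CPM, and Btg1, an antiproliferative factor, at 928 and 496 against 607 and 321 CPM. Both differed in the same direction in each pair while the groups overlapped. DESeq2 called 2 genes of the list higher and 2 lower, beside 1.32% and 0.987% of all genes. Btg1 was among those called lower (DESeq2 adjusted p = 0.0358). Tcf7, the TCF-1 gene of stem-like T cells, was at 26.8 and 30.4 against 21.99 and 21.9 CPM.

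Inhibitory receptors and exhaustion regulators had a median near 0 as a list (median -0.038; 4 of 22 higher and 7 lower without overlap). Pdcd1, which encodes PD-1, was at 375 and 310 CPM in WT and 422 and 458 CPM in STAT3ko cells (log2 fold change 0.38, SE 0.15, edgeR adjusted p = 0.31), and the fold change was 0.12 without STAT3ko replicate 2 and 0.62 without STAT3ko replicate 1. Tox, a factor of the exhausted state, was at 186 and 141 against 294 and 237 CPM (DESeq2 adjusted p = 0.00107). Lag3 was at 319 and 302 against 239 and 233 CPM and Havcr2 (TIM-3) at 377 and 379 against 342 and 308 CPM. Ctla4, at 1084 and 322 against 1010 and 292 CPM, and Nfatc1, at 442 and 368 against 480 and 437 CPM, overlapped. Among 17 anergy genes the median was -0.19, with 2 higher and 7 lower without overlap.

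Effector transcription factors had a median of -0.054 over 19 tested, with 3 higher and 6 lower without overlap. Id2, which favors effector cells, was at 595 and 937 against 392 and 546 CPM (DESeq2 adjusted p = 0.0225). Tbx21 (T-bet) was at 117 and 147 against 138 and 220 CPM, Ikzf1 at 1425 and 1229 against 1393 and 1183 CPM, and Bhlhe40 at 2263 and 516 against 2042 and 444 CPM. These last 3 overlapped.

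T cell receptor and proximal signaling genes had a median of -0.10 over 30 tested, with 2 higher and 9 lower without overlap. Cd6, a regulator of TCR signals, was the member with the largest difference, at 208 and 206 against 116 and 97.7 CPM (DESeq2 adjusted p = 1.98e-05). Ptprc (CD45) was at 3616 and 3319 against 3159 and 3147 CPM. The sum of the list was 18531 and 17863 CPM in WT and 16902 and 17156 CPM in STAT3ko cells.

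Homing receptors and integrins had values of both signs (32 tested, 11 higher and 7 lower without overlap, beside 22.3% and 21.1% of all genes). Itgb1, the β1 integrin chain, was at 1024 and 917 against 1533 and 1634 CPM, and DESeq2 called it higher. Its partner chain Itga1, which with β1 forms the collagen receptor VLA-1 of tissue T cells, was at 251 and 223 against 140 and 148 CPM, and DESeq2 called it lower. Itga4, the α4 chain, was at 2310 and 2104 against 2886 and 2832 CPM, and Itgal, of LFA-1, at 1652 and 1589 against 1539 and 1633 CPM. Itgae (CD103) was at 4.22 and 6.44 against 2.66 and 3.05 CPM, and Gpr15, a gut homing receptor, at 0.71 and 0.362 against 1.503 and 3.501 CPM. Gpr15 had few counts and was not tested with at least 10 counts in every library.

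NK lectin receptors and their adaptors had a median of -0.24 over 18 tested (-0.56 without STAT3ko replicate 2 and -0.15 without STAT3ko replicate 1), with 2 higher and 8 lower without overlap. Fcer1g, an ITAM adaptor, was at 22.1 and 23.7 against 11.1 and 11.8 CPM, and Klrc1 (NKG2A) at 214 and 211 against 142 and 150 CPM. Klrg1, a receptor of terminal effectors, was in the other direction at 14.96 and 15.6 against 25.3 and 28.7 CPM, as was Klrk1 (NKG2D) at 271 and 306 against 321 and 405 CPM. Ly49 genes such as Klra7 (2.09 and 2.17 against 0.644 and 0.659 CPM) have near-identical copies, so their counts are uncertain.

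Metabolic lists had medians near 0. Glutathione and antioxidant genes had a median of -0.12 over 38 tested (-0.042 without STAT3ko replicate 2, -0.068 without WT replicate 1 and -0.079 without WT replicate 2), 3 being higher and 10 lower without overlap. Gstt1, a glutathione transferase, was at 2.31 and 3.86 against 0.472 and 1.24 CPM (DESeq2 adjusted p = 0.0276), whereas the glutamine carrier Slc1a5 was at 292 and 285 against 256 and 271 CPM. Glycolysis genes had a median of -0.063 over 26, 1 being higher and 6 lower without overlap. Slc2a3 (GLUT3) was at 301 and 280 against 221 and 210 CPM, Ldha at 689 and 621 against 581 and 503 CPM, and Pkm at 657 and 582 against 610 and 524 CPM with overlap. Fatty acid genes had a median of 0.047 over 27, 11 being higher and 7 lower without overlap, with Acsl5 at 375 and 335 against 389 and 379 CPM and Hadha at 301 and 273 against 338 and 311 CPM. Apoptosis genes had a median of 0.0046 over 33, 7 being higher and 5 lower without overlap. Mcl1, a survival factor of the BCL-2 family, was at 579 and 470 against 498 and 427 CPM. DESeq2 called Trp53 higher (74.7 and 66.3 against 102 and 95.4 CPM) and Bcl2a1b, one of several near-identical copies, lower (68.3 and 77.3 against 48.2 and 48.1 CPM).

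The medians near 0 moved when 1 library was left out. That of the inhibitory receptors was -0.17 without STAT3ko replicate 1 and 0.0079 without STAT3ko replicate 2, that of the effector factors -0.093 and -0.019, that of T cell receptor genes -0.041 and -0.15, and that of glycolysis genes -0.10 and 0.036. The homing list had 0.031 without STAT3ko replicate 2, the fatty acid list 0.0097 without STAT3ko replicate 1, the receptor and JAK list 0.031 without WT replicate 1, and the apoptosis list -0.044 without WT replicate 2.

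Beyond the lists, the genes next in order of p were chosen after their values were seen. They were not called by edgeR on the 6 libraries with the filter on low counts. Among them were Cbfa2t3, a corepressor, at 4.39 and 1.97 against 18.6 and 17.1 CPM, Car2, carbonic anhydrase 2, at 1.82 and 0.966 against 7.99 and 8.73 CPM, and Enpp4, an ectonucleotidase, at 26.0 and 24.4 against 51.7 and 48.7 CPM. The adjusted p of these 3 was between 0.055 and 0.072 with edgeR, and DESeq2 and the fit of 12 libraries called each of them.

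None of the markers of other cells was called by the fit of 6 libraries, beside 0.075% of all genes, so the lack of a call says little. Many had too few counts to be tested, among them all neutrophil and all erythroid and platelet markers. Several lists were near 0. Hepatocyte markers summed to 2.00 and 4.95 CPM in WT and 1.63 and 2.80 CPM in STAT3ko libraries, with Trf the most counted and Apoc3, Ttr and Mup3 at 0 in all 4. Macrophage and Kupffer cell markers summed to 30.3 and 40.8 against 27.8 and 36.4 CPM, of which Cd68 made up 29.0 and 29.1 against 27.1 and 28.0 CPM, with Adgre1 at 0.0888 and 0.402 against 0.0429 and 0.577 CPM and Csf1r at 0.0888 and 0.966 against 0.0429 and 0.577 CPM. Their part in the level of Cybb was not tested. B cell markers summed to 14.7 and 10.9 against 12.7 and 14.0 CPM (Cd79b most counted, Ms4a1 at 0), and NK cell markers to 48.9 and 56.7 against 29.1 and 53.0 CPM, nearly all Klrb1c, with Ncr1 between 0.0402 and 0.288 CPM and Klra8 and Klra4 at 0.

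Dendritic cell and class II markers summed to 394 and 373 CPM in WT and 223 and 253 CPM in STAT3ko libraries, almost all from Itgax (CD11c; 391 and 366 against 219 and 245 CPM, DESeq2 adjusted p = 0.00319), which activated CD8 T cells also express, while Flt3, Siglech and Clec9a were at 0 in all 4. CD4 T cell markers summed to 93.2 and 88.4 against 94.9 and 123 CPM, with Zbtb7b the most counted and Foxp3 at 23.7 and 13.8 against 18.2 and 29.0 CPM. Endothelial markers summed to 117 and 131 against 116 and 125 CPM (Pecam1, which T cells carry as well), cholangiocyte and stellate markers to 11.6 and 8.89 against 13.6 and 10.9 CPM (Epcam; Krt7, Krt19, Dcn and Col3a1 at 0), neutrophil markers to at most 1.25 CPM (S100a8; Elane at 0), and erythroid and platelet markers to at most 0.453 CPM (Ppbp; the 4 globin genes at 0). Genes of the Y chromosome were expressed in all 4 libraries (Ddx3y at 136 and 140 against 112 and 112 CPM) and Xist had at most 4 counts.

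The CD4 T cells have WT libraries of their own but came, according to the study, from livers of the same recipients, so that they are not an independent repeat. In them all 9 called genes had the same sign of change. The fit of 12 libraries called 456 genes in CD4 T cells (3.7%; 1.53% higher and 2.16% lower), and 8 of the 9 were among them. Gzmb was at 1349 and 898 CPM in WT CD4 T cells against 521 and 306 CPM, Il1r1 at 25.3 and 39.3 against 0.706 and 1.24 CPM, and Cybb at 6.32 and 4.91 against 73.7 and 72.9 CPM. Klrh1, the gene not called, was at or below 0.212 CPM in all 4 CD4 libraries. Over 11992 genes the CD8 and CD4 changes had the same sign for 75.1% of genes and for 421 of 436 genes called in CD4 T cells (96.6%). Of these 436, 369 were without overlap in the CD8 libraries in the direction of the CD4 change, beside 22.3% of all genes that lay higher and 21.1% that lay lower without overlap (43.4% in either direction).

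The difference of the STAT3ko change between CD8 and CD4 T cells was tested in the fit of 12 libraries, with the replicate number within each subset as a block. Of 12334 genes 0 passed with edgeR (345, or 2.8%, had an unadjusted p under 0.05, 1.36% with the higher value in CD8, and the smallest adjusted p was 0.18), and 13 of 13985 passed with DESeq2 (0.093%), 2 of them with the higher value in CD8 (0.0143%) and 11 with the lower (0.0787%). The log2 fold change of Stat3 was -1.46 in CD8 and -1.45 in CD4 T cells, with a difference of -0.0036 (SE 0.23). The mitosis list had a median of 0.42 in CD8 and 0.33 in CD4 T cells, where 56 of 56 were above 0, the interferon list 0.34 and 0.61, the type 17 list -0.59 and -0.93, the cytotoxic list -0.33 and -0.0004, and the NK lectin list -0.24 and 0.44. The type 17 medians include the members that passed the filter through other libraries, so they describe the members and support nothing. Over the settings tried, the CD8 median ran from 0.39 to 0.45 for mitosis, 0.24 to 0.40 for interferon and -0.71 to -0.38 for type 17 genes. It ran from -0.42 to -0.10 for the cytotoxic list and from -0.56 to -0.15 for the NK lectin list. The difference between the subsets in the list medians was not tested. Of the NK lectin genes 8 of 18 had an unadjusted interaction p under 0.05 with the lower value in CD8, beside 1.44% of all genes, and none passed the adjusted threshold with edgeR, while DESeq2 called 2 of them, Klrk1 and Klrd1.

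**Figure D5:**
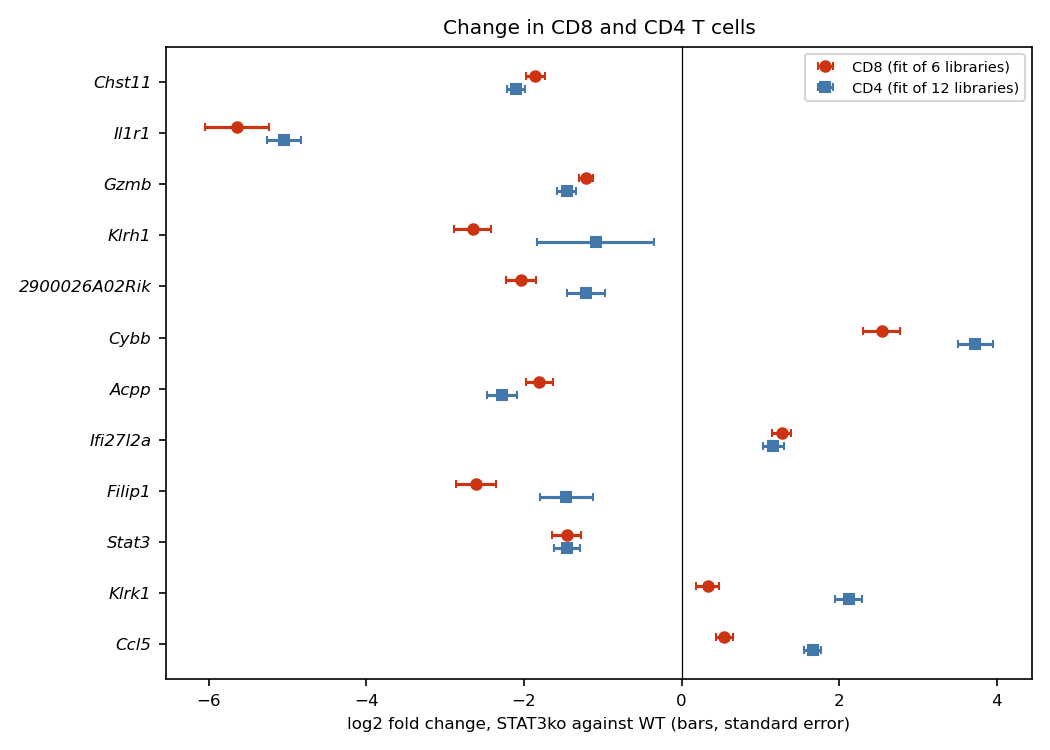
Log2 fold change of STAT3ko against WT (x axis, bars are standard errors) for the 9 called genes, Stat3, Klrk1 and Ccl5 in CD8 T cells (red circles, fit of 6 libraries) and CD4 T cells (blue squares, fit of 12 libraries). The 9 called genes and Stat3 lie on the same side of 0 in both subsets, Il1r1 farthest at -5.64 and -5.05, while Klrk1 (0.33 and 2.12) and Ccl5 (0.54 and 1.67) are larger in CD4 T cells.

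In CD8 T cells that lacked PD-1 as well, which share the WT libraries and therefore give no independent test, levels of the 9 called genes lay at different places. Gzmb (2198 and 1761 CPM), Chst11 (41.2 and 44.3 CPM), Il1r1 (0.133 and 0.166 CPM) and Acpp (6.57 and 10.5 CPM) were close to the STAT3ko libraries, and Klrh1 (0.666 and 0.621 CPM) was below them. The levels of 2900026A02Rik (10.3 and 10.9 CPM) and Filip1 (4.97 and 3.77 CPM) lay between STAT3ko and WT. Ifi27l2a, at 25.3 and 23.9 CPM, lay below WT rather than above it, and Cybb, at 3.28 and 2.90 CPM, lay nearer to WT than to STAT3ko. That comparison called 2965 of 12002 genes (24.7%; 12.6% higher and 12.1% lower), and its list medians were 0.40 for mitosis, 0.66 for S phase, -0.37 for interferon stimulated and -0.38 for cytotoxic genes.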

How the data were processed

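Each library held RNA of sorted donor CD8 T cells of the liver combined from 3 recipients. The authors mapped reads to the mouse genome mm10 using STAR, assigned them to RefSeq genes using HTSeq-count, and deposited raw counts, used here for every test, and RPKM values. Whether strand was used is not given in the sources used here, so overlapping genes are uncertain. The labels carry a protocol for a cell line, which was not used. Groups came from the sample titles.

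The count model was edgeR's quasi-likelihood test (edgeR 4.0.16 in R 4.3.3) with TMM scaling and filterByExpr (at least 10 counts, 15 in total), fitted to the 6 CD8 libraries with replicate number as a block. The comparison is defined as paired, but the labels do not say that a number marks a batch. As a check of the pairing, the difference between replicates 1 and 2 correlated over genes with r = 0.68 between WT and STAT3ko, 0.18 between WT and STAT3ko PD-1ko, and 0.060 between STAT3ko and STAT3ko PD-1ko. With the block, the spread is estimated from how far these replicate differences disagree between the groups, STAT3ko PD-1ko included. With 2 pools a side the spread is estimated from few libraries, and genes with few counts also carry wide counting error. Scripts were tested on simulated data, and figures used matplotlib 3.10.9 in Python 3.11.15.

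The comparison, the 20 gene lists and 12 marker lists were chosen with earlier results of these data known. The rule for naming genes took Stat3, Pdcd1, Cd8a and Cd8b1, then up to 12 called genes a direction that did not overlap and whose average log2 CPM reached 3, then the called members of each list, filled to 2 by the highest WT level, and the most counted marker of each cell type. Any other gene, among them Klrh1, Cybb and Filip1, was chosen after its values were seen. A few genes that the rule names are not reported here. Alternatives were no block, DESeq2 1.42.0, limma-voom (limma 3.58.1), RLE scaling, looser and stricter filters, 4 or 12 libraries, a log2 fold change of at least 1, log2(RPKM + 1) with limma, and leaving out each library.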

Additional observations from a re-analysis of the deposited data

Results flagged for a closer look

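For 2 named genes the change with loss of STAT3 differed between the subsets by DESeq2's test of the difference, though not by edgeR's (adjusted p = 0.18 for each, interaction standard errors 0.23 and 0.15). Klrk1, the activating receptor NKG2D, went from 271 and 306 to 321 and 405 CPM in CD8 T cells and from 40.8 and 22.9 to 157 and 115 CPM in CD4 T cells, a difference of -1.79 on the log2 scale (CD8 minus CD4, DESeq2 adjusted p = 3.02e-09). Ccl5 went from 395 and 359 to 518 and 580 CPM in CD8 T cells and from 47.8 and 53.5 to 156 and 165 CPM in CD4 T cells, a difference of -1.12 (DESeq2 adjusted p = 1.31e-05). Both genes were higher in STAT3ko cells in every pair of both subsets. When 1 library was left out, the CD8 log2 fold change ran from 0.13 to 0.51 for Klrk1 and from 0.41 to 0.68 for Ccl5.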

How the results depend on the processing

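The number of called genes was 9 with the replicate block and 7 without the replicate block, 8 with limma-voom, 9 with RLE scaling, 8 with at least 10 counts in every library and 9 with a log2 fold change of at least 1. It was 264 with DESeq2, 77 (34 higher, 43 lower) with no filter beyond 1 count in any library, 2921 (1541 higher, 1380 lower) with the 4 libraries compared and the block, and 74 with all 12 libraries. Chosen after seeing the data, the 4 libraries with no block gave 0 (1408 at an unadjusted p under 0.05) and DESeq2 with no block 201. Also chosen after seeing the data as a count, log2(RPKM + 1) with limma gave 0 (1758 at an unadjusted p under 0.05), so that none of the 9 was called. Leaving out 1 library gave 11 to 3134, the highest counts without a STAT3ko PD-1ko library. With 1 STAT3ko PD-1ko library left out, the other is fitted exactly by its own group term. The spread then comes from the 4 libraries compared, as in the fit of those 4 with the block. Why that gave more calls was not tested. All 9 genes were called in each of these settings except no block (7, without Gzmb and Acpp), voom (8), 10 counts in every library (8), leaving out WT replicate 2 (8), the 4 libraries with no block (0) and log2(RPKM + 1) (0). In the edgeR fit of 6 libraries with the filter on low counts, Stat3 was not called with the block or without it.

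Stat3 had a log2 fold change of -1.46 with DESeq2, with or without the block, with 4 libraries and the block, and with 12 libraries, and of -1.45 with no filter, each of which called it. It ranged from -1.68 to -1.26 when 1 library was left out, and its adjusted p was 0.11 without the block, 0.071 with voom and 0.12 on log2(RPKM + 1). The difference between CD8 and CD4 T cells was called for 0 genes in every edgeR setting and for 13 with DESeq2. Of 92 other named genes, 82 kept their sign in every setting. The 10 that changed sign did so when 1 library was left out, which breaks a pair. Their ranges were -0.52 to 0.14 for Pim1, -0.60 to 0.073 for Ifng, -0.58 to 0.31 for Ctla4, -0.72 to 0.31 for Bhlhe40, -0.085 to 0.025 for Itgal, -0.23 to 0.12 for Irf4, -0.037 to 0.43 for Klf6, -0.67 to 0.15 for Junb, -0.38 to 0.050 for Cish and -0.21 to 0.93 for Tbx21.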
